A study of Homo sapiens with 4 samples.

Results

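The genes described here build the centromere and kinetochore, the protein platform through which a chromosome is pulled by the spindle, and run the spindle checkpoint that holds a dividing cell back until every chromosome is attached. They are 43 genes listed by symbol, and all 43 passed the requirement of a mean of at least 30 normalized fragment counts over the libraries, out of 12742 genes that did so among 42113 gene models. The lowest means were those of SPC24 (67.9) and CENPP (84.4), so no listed gene lay below the limit. Levels were read in A549, an established human lung adenocarcinoma cell line, from 4 RNA sequencing libraries. One population carried a stable lentiviral negative control shRNA and the other an shRNA against LIMA1, which encodes the actin-binding protein EPLIN; both were grown in RPMI medium and studied without nutlin-3a and with 10 µM of it, and RNA was taken 24 h after the treatment. The sample titles write si for these cells and the protocols shRNA; the text follows the protocols. Every group is 1 library, and the labels do not say whether the infected cells were clones or pools, nor how many hairpins were used, so a difference compares libraries and carries no replicate error, test or p-value.

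Nutlin-3a frees p53 from its ubiquitin ligase MDM2. In proliferating cells p53 is known to switch on CDKN1A, whose product p21 blocks the cyclin-dependent kinases; the pocket proteins RBL1 and RBL2 then join the MuvB proteins in the repressor complex DREAM, which binds promoters of cell cycle genes through the CHR element and E2F sites. Kinetochore genes are made mostly in G2 phase and mitosis, and many of them carry a CHR element close to the transcription start, often together with CCAAT boxes, the binding site of NF-Y. The protein complex itself is layered: CENP-A nucleosomes mark the centromere, the inner kinetochore binds them, the outer network of KNL1, MIS12 and NDC80 complexes holds microtubules, and checkpoint kinases and the chromosomal passenger complex watch over attachment.

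The libraries held 15.2 to 16.7 M fragments. LIMA1 stood at 416 normalized counts in untreated control cells, 68.3 in untreated LIMA1 shRNA cells, 866 in nutlin-3a control cells and 133 in nutlin-3a LIMA1 shRNA cells. CDKN1A stood at 1066 and 1178 without nutlin-3a in control and LIMA1 shRNA cells, and at 34078 and 48106 with it. Of markers used to check the cell type, the 6 epithelial genes summed to 149025 to 179616 normalized counts per library, mostly KRT8 and KRT18; EPCAM stood at 229 and 82.1 without nutlin-3a in control and LIMA1 shRNA cells and at 111 and 31.1 with it, and KRT19 at 1278 and 2061 and then 3420 and 5840. The 7 alveolar type II genes summed to 1165 to 1582, nearly all from ABCA3 (1152 to 1505); SFTPA1 and SFTPB were at 0 in all 4 libraries, NKX2-1 was at 0.99 at most, and SFTPD and NAPSA reached 52.6 and 23.8. The leukocyte list summed to 613 to 898, nearly all from CD68, with PTPRC and CD3E at or near 0, and the 3 endothelial genes summed to 3.22 to 12.9. The 3 fibroblast genes summed to 82.0 and 46.5 without nutlin-3a in control and LIMA1 shRNA cells and to 40.7 and 20.4 with it; the part of these markers in the results was not tested.

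With nutlin-3a, 35 of the 43 kinetochore and checkpoint genes were lower by at least 1 on the log2(normalized count + 1) scale in control shRNA cells, and the same 35 were lower in LIMA1 shRNA cells. Over all genes measured, 5.64% were lower by that much in control and 6.08% in LIMA1 shRNA cells. None of the 43 was higher by 1, against 5.54% and 7.29% of all genes. Their median difference was -3.58 in control and -3.59 in LIMA1 shRNA cells, beside -0.02 for all genes in each line. A difference of -4 or lower was found for 17 and 18 of the 43, and for 0.895% and 0.903% of all genes. The 43 genes together made up 2875 and 2792 normalized counts in each M without nutlin-3a in control and LIMA1 shRNA cells, and 618 and 618 with it. In RNA from a whole culture, fewer cells in the phases that make these transcripts and less transcript per cell cannot be told apart.

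**Figure D1:**
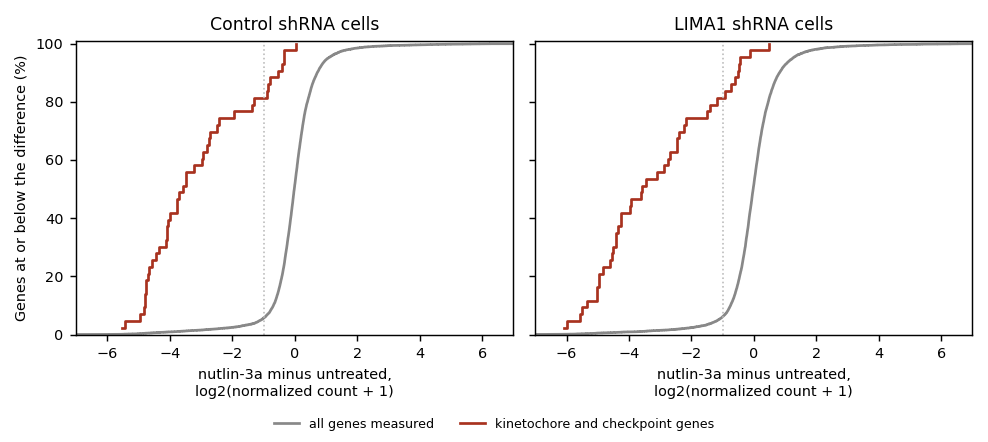
Cumulative share of genes (y axis, percent) at or below each nutlin-3a minus untreated difference (x axis, log2(normalized count + 1)), for all 12742 genes measured and for the 43 kinetochore and checkpoint genes, in control shRNA cells (left) and LIMA1 shRNA cells (right). The line for the 43 genes lies far to the left of that for all genes in each panel, with medians of -3.58 and -3.59; the dotted line marks -1.

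The remaining 8 genes differed by less than 1 in each line: CENPB, CENPT, MIS12, NSL1, PMF1, ZW10, BUB3 and MAD1L1. They supplied 22.7% and 23.3% of the summed counts of the 43 genes in untreated control and LIMA1 shRNA cells, and 70.0% and 69.5% with nutlin-3a. CENPB and BUB3 alone supplied 45.9% and 44.9% of the sum with nutlin-3a. The 35 lower genes summed to 35076 and 34949 normalized counts without nutlin-3a and to 2913 and 3054 with it. The same separation recurs inside single complexes, among them CENPT and CENPW and the 4 subunits of the MIS12 complex.

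**Figure D2:**
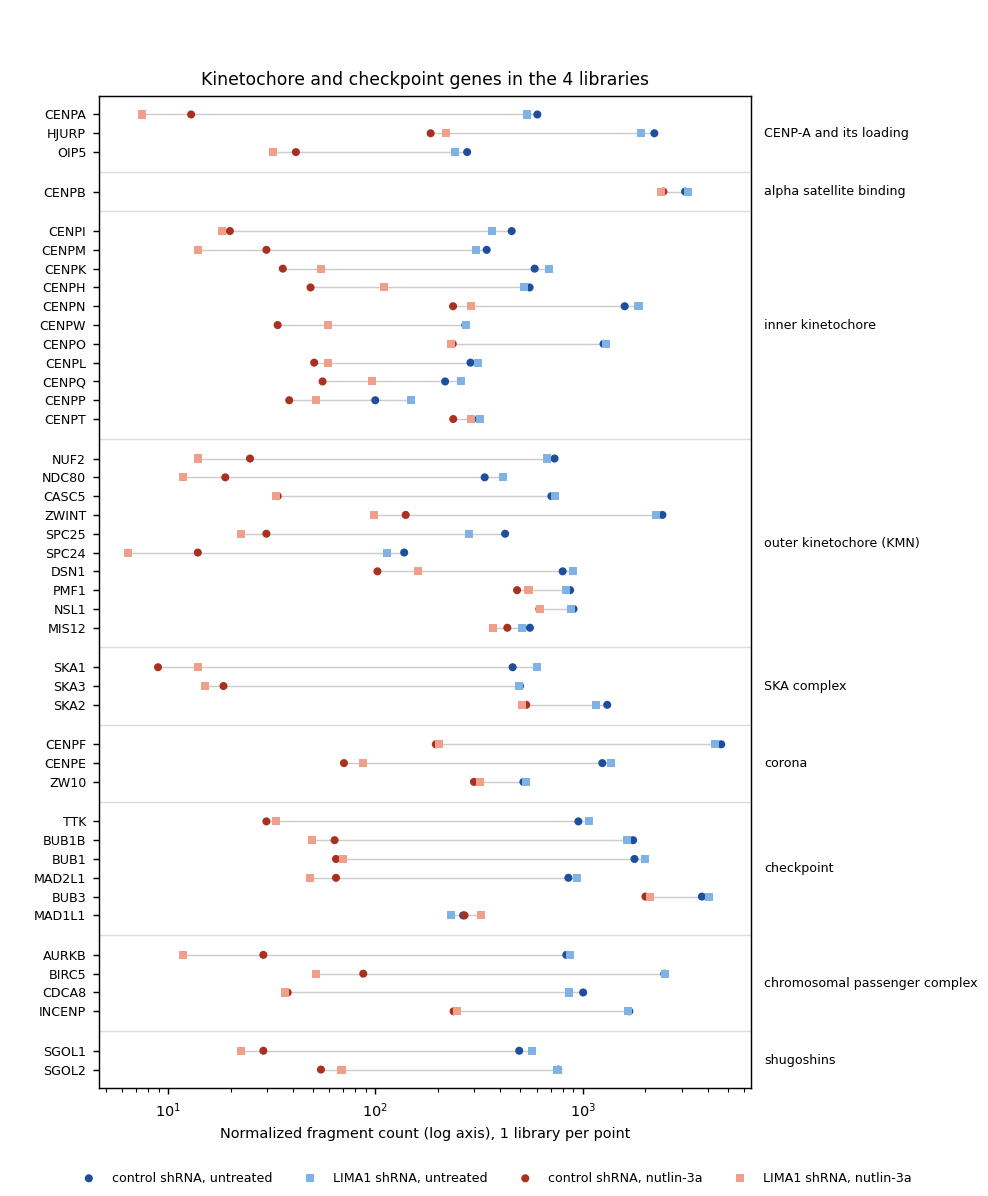
Normalized fragment count (x axis, log scale) of each of the 43 genes (y axis, grouped by role) in the 4 libraries, 1 point per library. For most genes the red nutlin-3a points sit well to the left of the blue untreated points, whereas at CENPB, CENPT, MIS12, NSL1, PMF1, ZW10, BUB3 and MAD1L1 they lie close together.

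Promoter windows of RefSeq (GRCh38.p14; 250 bases before to 50 after the start) were matched by symbol for 36 of the 43 genes, which had 42 windows; CENPH, CENPL, CENPM, CASC5, BUB3, TTK and BIRC5 were not matched. The stretches from 150 bases before to 30 bases after the start are shown for 4 genes that were strongly lower, CENPA, BUB1B, CDCA8 and BUB1, and for 2 that were not, CENPT and MAD1L1, so that the motif content can be read beside the values. These 6 are examples and do not represent all members. CENPI and CENPE, also strongly lower, held no match to any motif searched. MIS12 and PMF1, which were not lower by 1, held CCAAT boxes. Capitals mark, on either strand, the CHR element, which is TTTGAA, and a variant of it that reads the same on both strands, TTCGAA. They also mark the CCAAT box, and any of the E2F forms given further on; none of the E2F forms lies in these 6 stretches.
CENPA, chr2:26785906-26786085, plus strand: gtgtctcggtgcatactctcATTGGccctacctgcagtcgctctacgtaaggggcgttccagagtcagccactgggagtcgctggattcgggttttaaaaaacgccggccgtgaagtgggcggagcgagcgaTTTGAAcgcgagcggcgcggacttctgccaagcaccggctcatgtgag
BUB1B, chr15:40160919-40161098, plus strand: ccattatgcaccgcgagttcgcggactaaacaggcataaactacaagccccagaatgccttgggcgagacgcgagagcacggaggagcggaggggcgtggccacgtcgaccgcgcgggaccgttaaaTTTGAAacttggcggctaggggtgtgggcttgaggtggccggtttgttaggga
CDCA8, chr1:37692366-37692545, plus strand: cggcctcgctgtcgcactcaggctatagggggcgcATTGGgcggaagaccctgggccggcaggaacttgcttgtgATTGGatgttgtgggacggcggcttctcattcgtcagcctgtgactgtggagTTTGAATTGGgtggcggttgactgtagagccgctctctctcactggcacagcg
BUB1, chr2:110678034-110678213, minus strand: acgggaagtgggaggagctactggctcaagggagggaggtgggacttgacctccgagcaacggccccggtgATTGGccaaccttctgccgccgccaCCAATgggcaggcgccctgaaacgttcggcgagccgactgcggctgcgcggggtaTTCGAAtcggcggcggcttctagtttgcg
CENPT, chr16:67847664-67847843, minus strand: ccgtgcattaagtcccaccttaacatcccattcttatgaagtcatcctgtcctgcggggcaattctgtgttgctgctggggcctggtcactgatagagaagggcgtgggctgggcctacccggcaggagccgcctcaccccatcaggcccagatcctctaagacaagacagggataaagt
MAD1L1, chr7:2232916-2233095, minus strand: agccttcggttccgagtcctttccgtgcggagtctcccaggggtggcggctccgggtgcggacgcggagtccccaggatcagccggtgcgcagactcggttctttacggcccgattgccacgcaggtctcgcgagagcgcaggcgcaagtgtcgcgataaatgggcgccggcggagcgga

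The CHR element begins 18 bases before the start in CENPA and 23 bases before it in BUB1B and CDCA8, and BUB1 has the variant 2 bases into the transcript. In CDCA8 the CHR element shares its last base with a CCAAT box in the other orientation. Over the whole windows, 16 of the 36 matched genes held a CHR element (44.4%), against 13.8% of the 9157 measured genes with a window and 28.9% of 398 other genes that were lower by 1 in both lines; by window, the shares were 40.5% of 42 and 15.2% of all 35116 in the table. Of the 29 matched genes that were lower in both lines 15 held it, and of the 7 others 1, ZW10, where it begins 224 bases before the start. Restricted to elements that begin within 50 bases of the start, a distance chosen after the matches were seen, the counts were 14 of 29 and 0 of 7, beside 4.43% of the measured genes with a window and 4.62% of all windows. Among the 398 other lower genes, 18.3% held such an element. The variant was found in 5 genes, BUB1, CENPW, NDC80, OIP5 and SGOL1, all of them lower in both lines, and in 2.41% of the measured genes, 1.45% of all windows and 5.53% of the 398 other lower genes.

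CCAAT boxes were more widely spread. At least 1 was present in 20 of the 29 lower genes and 3 of the 7 others, in 43.6% of the measured genes and in 34.6% of all windows; among the 398 other lower genes the share was 58.3%. A CHR element and a CCAAT box occurred in the same window for 10 of the 36 genes (27.8%), against 5.82% of the measured genes, 5.90% of all windows and 20.1% of the 398 other lower genes. The E2F forms searched were TTTCCCGC, TTTGGCGC, TTTCGCGC and TTCCCGC, the last of which is contained in the first. TTCCCGC was found in 5 of the 29 lower genes and 3 of the 7 others, beside 13.0% of the measured genes, 6.55% of all windows and 27.9% of the 398 other lower genes. TTTCCCGC was found in CENPA and MIS12 (3.41% of measured genes, 1.63% of all windows, 10.3% of the 398), TTTGGCGC in OIP5 (1.40%, 0.652% and 6.78%) and TTTCGCGC in no member (1.14%, 0.515% and 4.77%). AURKB, which was among the lowest genes with nutlin-3a, held a CCAAT box and no CHR element or E2F form in either of its 2 windows. Several genes have more than 1 window, which gives them more chances of a match, and a match is a string of letters, not a measured binding site.

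**Figure D3:**
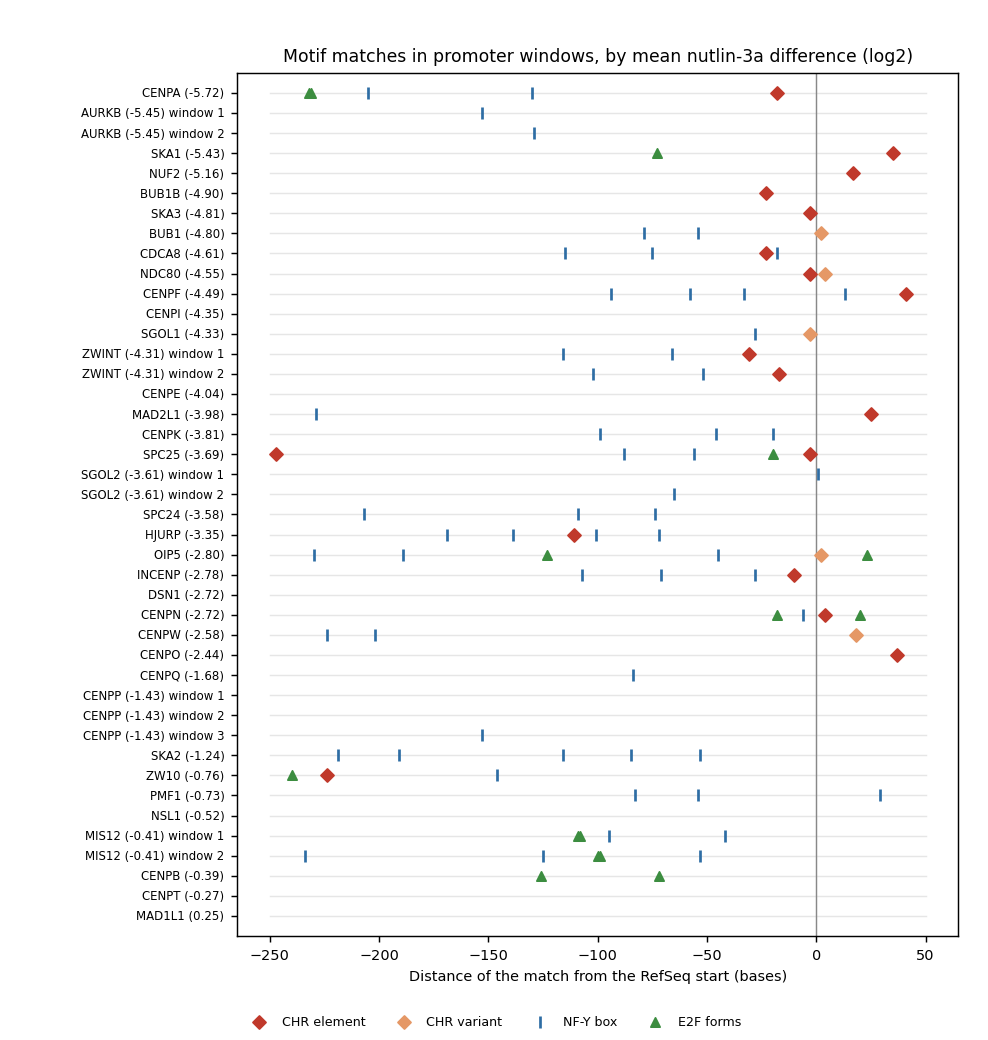
Position of motif matches (x axis, distance in bases from the RefSeq start) in the 42 promoter windows of 36 genes (y axis), ordered by the mean nutlin-3a difference of both lines, given in brackets on the log2(normalized count + 1) scale; diamonds are CHR elements and variants, bars CCAAT boxes (NF-Y boxes) and triangles E2F forms. CHR diamonds gather near the start in the upper rows, whereas among the 7 genes at the bottom that differed by less than 1 the single diamond, in ZW10, lies 224 bases before it.

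CENPA encodes the histone H3 variant that replaces H3 in centromeric nucleosomes. It stood at 604 normalized counts in untreated control cells and 540 in untreated LIMA1 shRNA cells, and at 12.9 and 7.50 with nutlin-3a. With nutlin-3a 2.14% of the untreated level was left in control cells (95% counting interval 1.13% to 3.68%) and 1.39% in LIMA1 shRNA cells (0.556% to 2.88%). These are the lowest shares of any member but SKA1 in control cells and AURKB in LIMA1 shRNA cells, and they rest on 13 and 7 fragments. HJURP, the chaperone that deposits CENP-A, stood at 2216 and 1910 untreated and at 185 and 220 with nutlin-3a, so 8.33% (7.14% to 9.68%) and 11.5% (9.92% to 13.3%) were left. OIP5, a subunit of the MIS18 complex that licenses this deposition, stood at 277 and 242 untreated and 41.3 and 32.1 with nutlin-3a. The 3 genes of this group were all lower, with differences in control cells from -5.44 for CENPA to -2.72 for OIP5.

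CENPB, which binds a short motif in alpha satellite DNA, differed less between treatments than the 3 genes of the CENP-A group. Its values were 3119 and 3237 normalized counts untreated and 2450 and 2383 with nutlin-3a in control and LIMA1 shRNA cells. The nutlin-3a libraries were below the untreated ones, but 78.5% (74.5% to 82.8%) and 73.6% (69.7% to 77.7%) of the level was left, with differences of -0.35 and -0.44.

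Of the 11 inner kinetochore genes, which tie CENP-A chromatin to the microtubule-binding layer, 10 were lower by at least 1 in each line. The medians over the 11 were -2.75 in control and -2.39 in LIMA1 shRNA cells. CENPI had the lowest mean difference: it stood at 454 and 366 normalized counts untreated and at 19.9 and 18.2 with nutlin-3a, leaving 4.37% (2.65% to 6.82%) and 4.98% (2.87% to 8.08%). CENPK, which assembles with CENPI and CENPH, was at 586 and 687 untreated and 35.7 and 54.7 with nutlin-3a. The group's differences graded from there to CENPP, at 99.8 and 148 untreated and 38.4 and 51.7 with nutlin-3a (-1.36 and -1.50). CENPN, a reader of CENP-A nucleosomes, and its partner CENPL were at -2.75 and -2.48 in control cells. CENPO and CENPQ, which belong with CENPP to a further subcomplex, were at -2.41 and -1.94.

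The histone-fold partners CENPT and CENPW, which together bind centromeric DNA, were separated. CENPT stood at 314 and 320 normalized counts untreated and at 237 and 291 with nutlin-3a. CENPW stood at 271 and 272 untreated and at 33.8 and 59.0 with nutlin-3a. For CENPT 75.6% (63.7% to 89.5%) was left in control cells and 90.9% (77.1% to 107%) in LIMA1 shRNA cells, where the interval includes no difference; for CENPW the shares were 12.4% (8.45% to 17.8%) and 21.7% (15.9% to 29.03%). The counting interval thus excluded no difference in each line for CENPW, and only in control cells for CENPT.

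The outer kinetochore network was divided between its complexes. In the NDC80 complex, whose rod binds the microtubule, all 4 subunits were lower in each line. NUF2 stood at 731 and 670 normalized counts untreated and 24.8 and 13.9 with nutlin-3a, leaving 3.39% (2.18% to 5.05%) and 2.08% (1.102% to 3.58%). NDC80 itself was at 337 and 414 untreated and 18.9 and 11.8 with nutlin-3a, and SPC25 at 422 and 283 and then 29.8 and 22.5. SPC24, the partner of SPC25 at the inner end of the rod, was the least abundant, at 138 and 114 untreated and 13.9 and 6.43 with nutlin-3a, the last being 6 fragments.

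In the MIS12 complex, which joins the NDC80 complex to the inner kinetochore, 1 of 4 subunits was lower by at least 1. DSN1 stood at 800 and 899 normalized counts untreated and at 102 and 161 with nutlin-3a, leaving 12.8% (10.3% to 15.7%) and 17.9% (14.9% to 21.3%). MIS12 stood at 556 and 510 untreated and at 433 and 369 with nutlin-3a, leaving 77.8% (68.6% to 88.2%) and 72.4% (62.9% to 83.1%). NSL1 and PMF1, the latter with shared reads, were at -0.55 and -0.85 in control cells and at -0.50 and -0.60 in LIMA1 shRNA cells. Thus the nutlin-3a differences of subunits of this 1 complex ranged from -2.96 to -0.36 in control cells.

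CASC5, the older symbol of KNL1, the scaffold on which the checkpoint proteins BUB1 and BUB3 dock, was at 706 and 734 normalized counts untreated and 33.8 and 33.2 with nutlin-3a. ZWINT, its binding partner, was among the more abundant members at 2423 and 2266 untreated, with 140 and 98.6 left after nutlin-3a. Levels of different genes can be compared only per transcript length, for which the longest principal protein-coding transcript of GENCODE 29 was used. On that scale, ZWINT stood at 1295 normalized counts per kb in untreated control cells and CASC5, with a transcript of 9573 bases, at 73.8. NUF2 and SPC25 were at 371 and 312 per kb, NDC80 at 155 and SPC24 at 59.4. With these lengths, the subunits of a complex that contains them in equal number differed by several fold in counts per kb. Which transcripts the cells made was not examined, and other lengths would change these levels.

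The SKA complex tracks the ends of shortening microtubules, and its 3 genes were all lower in each line, though SKA2 far less than the other two. SKA1 stood at 459 and 601 normalized counts untreated and at 8.93 and 13.9 with nutlin-3a, the first being 9 fragments. That leaves 1.95% (0.885% to 3.73%) and 2.32% (1.23% to 3.998%). SKA3 was at 498 and 493 untreated and 18.5 and 15.01 with nutlin-3a. SKA2 stood at 1313 and 1156 untreated and 534 and 508 with nutlin-3a, with 40.7% (36.8% to 45.0%) and 44.0% (39.4% to 49.0%) left.

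At the fibrous corona, the outermost layer, the motor CENPE and the large coiled-coil protein CENPF were lower by at least 1. ZW10 was lower by less than that (-0.79 in control and -0.73 in LIMA1 shRNA cells). CENPF, the member with the highest untreated count, stood at 4659 and 4356 untreated and at 196 and 203 with nutlin-3a, leaving 4.20% (3.62% to 4.84%) and 4.65%. CENPE was at 1243 and 1370 untreated and 70.5 and 86.8 with nutlin-3a. ZW10, a subunit of the RZZ complex that also works in membrane traffic between the endoplasmic reticulum and the Golgi, was at 517 and 532 untreated and 299 and 319 with nutlin-3a, with 57.7% and 60.01% (51.9% to 69.3%) left.

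Of the 6 checkpoint genes, 4 were lower by at least 1 in each line. They were the kinases TTK and BUB1, the kinase-like BUB1B, which encodes BUBR1, and MAD2L1, which encodes the inhibitor MAD2. TTK stood at 953 and 1075 normalized counts untreated and 29.8 and 33.2 with nutlin-3a, leaving 3.12% (2.10% to 4.49%) and 3.09% (2.09% to 4.42%). BUB1 was at 1778 and 2006 untreated and 64.5 and 69.7 with nutlin-3a, and BUB1B at 1750 and 1644 and then 63.5 and 49.3. MAD2L1 was at 853 and 942 untreated and 64.5 and 48.2 with nutlin-3a. The binding partners of these proteins differed from them. BUB3, the WD40-repeat protein that carries BUB1 and BUBR1 to the kinetochore, stood at 3758 and 4063 untreated and 2007 and 2121 with nutlin-3a, just short of a difference of 1 (-0.90 and -0.94).

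MAD1L1, which encodes the MAD1 protein that recruits MAD2, was the single member not below its untreated level. It stood at 265 and 232 normalized counts untreated and at 269 and 323 with nutlin-3a in control and LIMA1 shRNA cells. The level with nutlin-3a was 102% of untreated in control cells (85.6% to 120%), and the LIMA1 shRNA line kept 139% (117% to 166%). The counting interval excludes no difference in the second line and includes it in the first.

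The chromosomal passenger complex corrects faulty attachments through the kinase Aurora B, and all 4 of its genes were lower, with medians of -4.75 and -5.05. AURKB stood at 833 and 870 normalized counts untreated and 28.8 and 11.8 with nutlin-3a. BIRC5, which encodes survivin, stood at 2473 and 2499 untreated and 87.4 and 51.5 with nutlin-3a. CDCA8, which encodes borealin, was at 1005 and 863 untreated and 37.7 and 36.4 with nutlin-3a. The scaffold INCENP stood apart from these 3 at 1678 and 1654 untreated and 238 and 247 with nutlin-3a, leaving 14.2% (12.4% to 16.3%) and 14.9% (12.9% to 17.1%), whereas AURKB, BIRC5 and CDCA8 were left at 3.45% to 3.75% in control cells.

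The shugoshins protect centromeric cohesin until anaphase. SGOL1 stood at 494 and 571 normalized counts untreated and 28.8 and 22.5 with nutlin-3a, and SGOL2 at 762 and 756 and then 54.6 and 68.6. Their differences were -4.05 and -3.78 in control cells and -4.61 and -3.44 in LIMA1 shRNA cells.

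**Figure D4:**
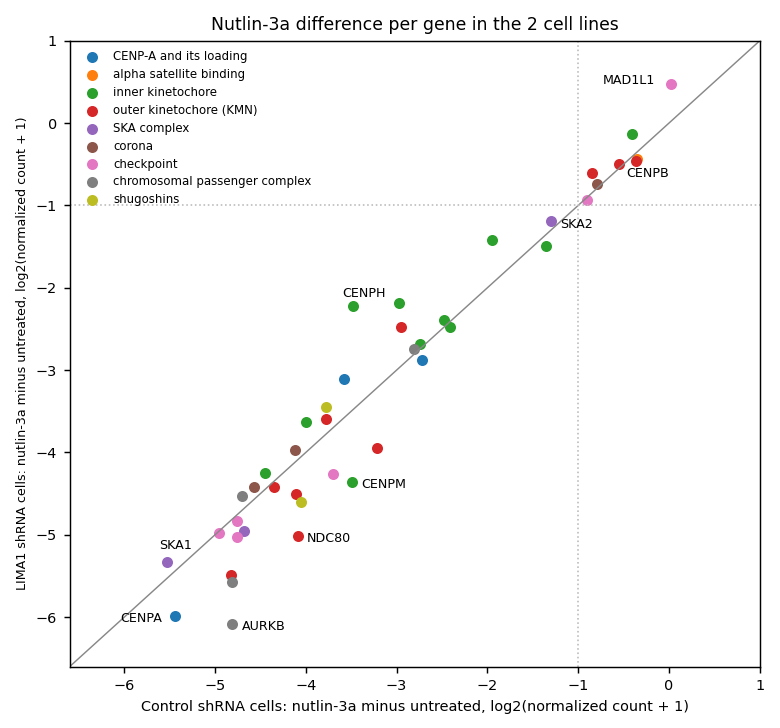
Nutlin-3a minus untreated difference of each of the 43 genes on the log2(normalized count + 1) scale, in control shRNA cells (x axis) and LIMA1 shRNA cells (y axis), 1 library per group, coloured by role; the diagonal marks equal differences and the dotted lines -1. Most points follow the diagonal from MAD1L1 near 0 to CENPA near -6; CENPH lies above it by 1.26 and AURKB below it by 1.28.

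Without nutlin-3a, none of the 43 genes differed by 1 in either direction between the LIMA1 and control shRNA libraries. Of all genes, 2.05% were lower and 1.04% higher by that much. Shares this small amount to few genes among 43, so the count of 0 lay near the background. The median difference was 0.0034, beside 0.02 for all genes, and the members ranged from -0.58 for SPC25 to 0.56 for CENPP. Counting intervals could be given for the 36 genes whose 4 values were whole fragments, and for 16 of these the interval excluded equal levels, among them SPC25 (ratio 0.67, 0.58 to 0.78), SKA1 (1.31, 1.16 to 1.48) and NDC80 (1.23, 1.06 to 1.42). Over all 10951 measured genes with whole fragments the same held for 46.6% (19.5% below and 27.1% above equal levels), so the 16 of 36 lay near the background. Such intervals leave out the variation between cultures, which a single library per group cannot show.

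With nutlin-3a, 3 of the 43 genes were lower by at least 1 in LIMA1 than in control shRNA cells, against 1.94% of all genes, and 1 was higher, against 1.26%. The lower genes were AURKB, CENPM and SPC24, and the higher gene was CENPH. With a pseudocount of 10 in place of 1 none of the 3 lower genes passed (AURKB -0.83, CENPM -0.73, SPC24 -0.54). The median over the 43 was 0.01, beside 0.03 for all genes, with 21 below 0 and 22 above. All 4 calls concern transcripts that were low with nutlin-3a: AURKB rests on 29 fragments in control and 11 in LIMA1 shRNA cells, CENPM on 30 and 13, SPC24 on 14 and 6, and CENPH on 49 and 103. In each nutlin-3a library 27 of the 43 genes were under 100 normalized counts, so the counting error alone is wide.

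CENPH, a member of the inner kinetochore next to CENPK and CENPI, stood at 554 and 519 normalized counts untreated in control and LIMA1 shRNA cells and at 48.6 and 110 with nutlin-3a. With nutlin-3a the LIMA1 shRNA library was thus 2.27 times the control library (1.60 to 3.26). The share left was 8.78% (6.42% to 11.8%) in control and 21.3% (17.0% to 26.3%) in LIMA1 shRNA cells. AURKB went the other way: with nutlin-3a the ratio of LIMA1 to control shRNA was 0.410 (0.185 to 0.845), and 3.45% (2.30% to 4.997%) against 1.36% (0.674% to 2.44%) of the untreated level was left. CENPM stood at 344 and 307 untreated and 29.8 and 13.9 with nutlin-3a, a ratio of 0.468 (0.224 to 0.925). For SPC24 the ratio was 0.463 and the interval, 0.146 to 1.28, includes equal levels.

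By group, the LIMA1 minus control difference with nutlin-3a was above 0 for 8 of the 11 inner kinetochore genes, with a median of 0.29; CENPM, CENPI and CENPO were below. As many of the 11 were above 0 without nutlin-3a, with a median of 0.03, and 54.6% of all genes were above 0 with nutlin-3a and 54.4% without it. Among the 8, CENPW (ratio 1.75, 1.12 to 2.76) and CENPQ (1.74, 1.23 to 2.47) followed CENPH. Of the 4 passenger genes 3, all but INCENP, were below 0 with nutlin-3a, with a median of -0.40. The same held for 7 of the 10 outer kinetochore genes, with a median of -0.31. Without nutlin-3a, 2 of the 4 passenger genes were below 0, with a median of -0.0028. As many as 7 of the 10 outer genes were below 0 there too, with a median of -0.08. With nutlin-3a, BIRC5 had a ratio of 0.589 (0.405 to 0.847) and ZWINT of 0.705 (0.536 to 0.923), while DSN1 was at 1.57 (1.22 to 2.04). The interval lay above equal levels for 6 of the 36 genes with whole fragments and below for 5, beside 26.5% and 18% of all genes with whole fragments, or 44.6% in both directions. The members' 11 of 36 is a smaller share than this, at counts that were low with nutlin-3a. The other groups had medians of -0.36 for CENP-A and its loading, -0.07 for the SKA complex, 0.10 for the corona, 0.09 for the checkpoint and -0.0085 for the shugoshins.

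**Figure D5:**
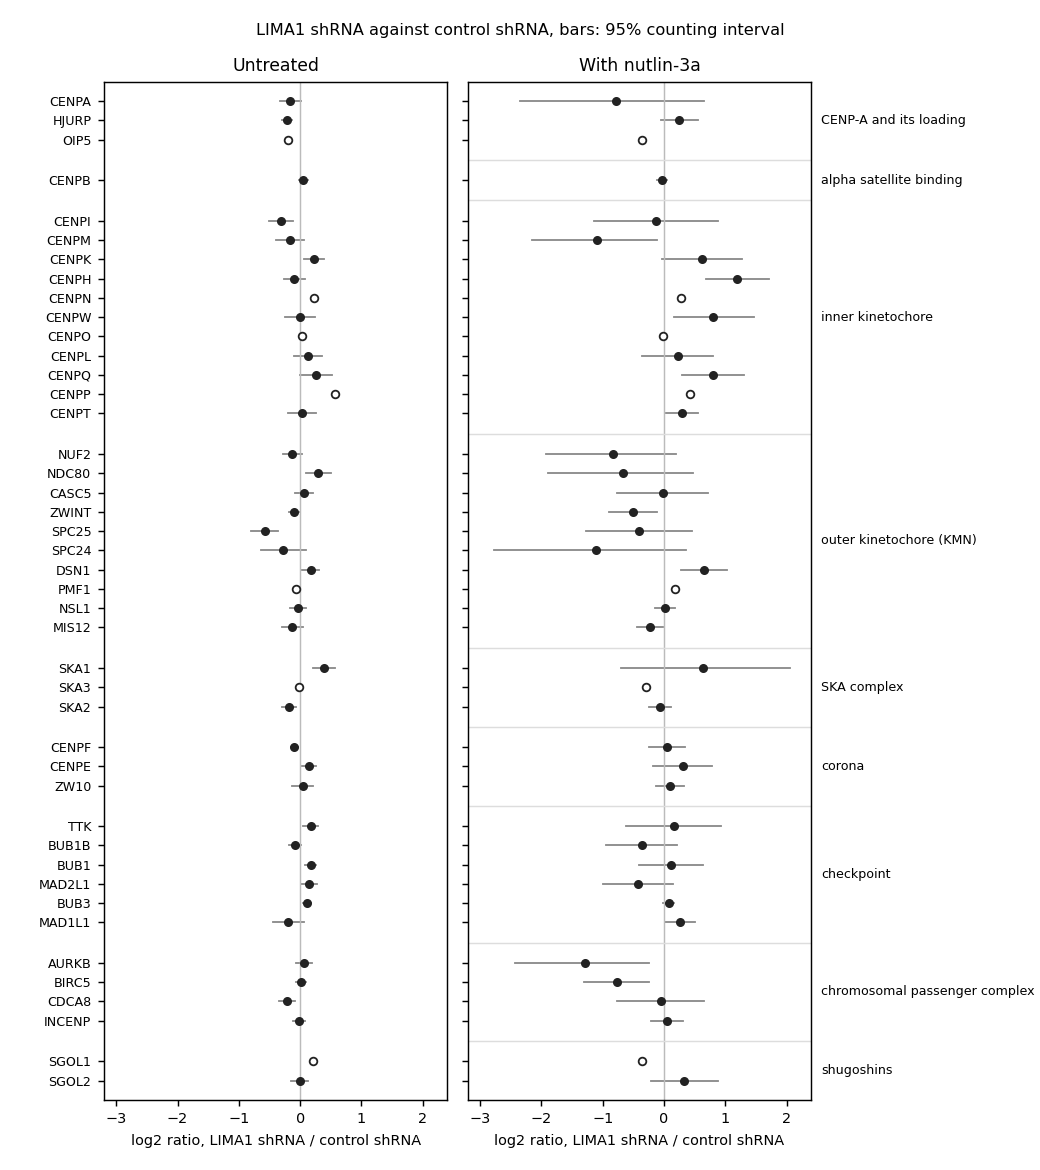
Log2 ratio of LIMA1 shRNA to control shRNA libraries (x axis) for each gene (y axis, grouped by role), untreated (left) and with nutlin-3a (right); bars are exact 95% counting intervals, and open circles are the 7 genes with shared reads, which have none. Untreated points stay close to 0 with short bars; with nutlin-3a the bars are longer, CENPH, CENPQ and CENPW lie to the right of 0, and AURKB, CENPM and BIRC5 to the left.

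The response difference, that is the nutlin-3a difference of the LIMA1 shRNA line less the one of the control line, uses all 4 libraries and was -1 or lower for 1 gene, AURKB, and 1 or higher for 1 gene, CENPH. Of all genes, 0.816% and 1.27% passed these limits. The value was -1.28 for AURKB, or -0.89 with a pseudocount of 10, and 1.26 for CENPH. The exact counting interval of the ratio of ratios was taken on fragments without a pseudocount. On the log2 scale it was -2.51 to -0.29 for AURKB and 0.74 to 1.83 for CENPH. The response difference was below 0 for 21 genes and above 0 for 22, with a median of 0.05, beside 0.0087 for all genes. Besides CENPH, the interval lay above 0 for CENPW, DSN1, HJURP and MAD1L1, and besides AURKB below 0 for BIRC5 and ZWINT; the other 28 of 36 intervals included 0. Among all genes with whole fragments the interval lay above 0 for 11.3% and below 0 for 10.2%, so the 8 of 36 lay near the background share of 21.5%. Since no group has a second library, these differences were not tested.

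Genes that work beside the kinetochore were read from 4 lists. For comparison, 5.64% of all genes were lower by 1 in control and 6.08% in LIMA1 shRNA cells. By the same size 5.54% and 7.29% were higher. Of 25 other measured (29 listed) centromere and kinetochore genes 16 were lower in each line and 0 higher, with medians of -2.07 and -1.76. The microtubule depolymerase KIF2C (-5.48 and -5.65) and the kinase PLK1 (-5.34 and -5.72) were lowest with SPAG5 (-4.18 and -4.60), whereas the microtubule plus-end protein genes CLASP1 (-0.15 and 0.18) and CLIP1 (0.07 and -0.0034) and the MAD2 inhibitor MAD2L1BP (-0.23 and -0.03) were highest. Of 24 genes for the anaphase-promoting complex, which the checkpoint restrains, and its activators and substrates, 10 were lower in control and 9 in LIMA1 shRNA cells. There UBE2C, its ubiquitin-conjugating enzyme, was at -4.94 and -5.67, cyclin A2, CCNA2, at -4.93 and -5.46 and separase, ESPL1, at -4.73 and -5.56, while the core subunits ANAPC2 (-0.0032 and -0.06), ANAPC13 (0.23 and 0.21) and ANAPC16 (0.34 and 0.29) were highest.

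Of 13 cohesin genes, whose ring holds sister chromatids together, 5 were lower in control and 6 in LIMA1 shRNA cells. ESCO2, an acetyltransferase that establishes cohesion, was at -4.88 and -5.63 and sororin, CDCA5, at -4.73 and -4.61, followed by the ring subunit RAD21 at -1.44 and -1.43; NIPBL (-0.21 in each line), MAU2 (0.17 and -0.13) and ESCO1 (-0.0021 and 0.02) were highest. Among 13 genes for DREAM and MuvB subunits and activators of mitotic genes, 6 were lower in control and 5 in LIMA1 shRNA cells. The activators MYBL2 (2423 and 3000 normalized counts untreated, 60.6 and 56.8 with nutlin-3a) and FOXM1 (2786 and 2899, then 135 and 98.3) and the pocket protein RBL1 (-2.27 and -2.40) were lowest, and the DREAM pocket protein RBL2 (0.06 and 0.26), TFDP2 (0.33 and 0.69) and LIN37 (0.15 and -0.36) were highest. In each of the 4 lists the median lay below 0 in each line, beside -0.02 for all genes. No measured gene of the lists was higher by 1, against 5.54% and 7.29% of all genes.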

How the data were processed

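The values are a signal per gene that the authors deposited, 1 library per sample. Per the submitters' processing notes, the build was hg19 and the software included Cuffnorm 2.2.1, Bowtie2 2.0.12 and bcl2fastq 1.8.3, with no roles stated. Which gene models were counted is not given in the sources. From the values, each library's fragment counts were scaled by 1 factor and not by gene length: 85.5% to 86.3% of values between 0.5 and 1000 fragments lay within 0.1 of a whole multiple of 1 step (0.943 to 1.07). The rest were taken as estimates for genes with shared reads, which 7 of the 43 genes had (CENPN, CENPO, CENPP, SKA3, PMF1, SGOL1 and OIP5). These 7 genes got no interval. Values of 1000 fragments or more were taken as whole without this check, for the 43 genes and for all genes. Genes with shared reads may therefore be among the abundant genes counted as whole.

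Groups came from the sample titles. For all genes with a mean of at least 30, log2(normalized count + 1) values were subtracted, and a gene was called at a difference of 1 in size. On this scale low genes appear to differ less than they do; shares left and ratios are of the deposited values. A ratio between libraries has an exact 95% interval (Clopper-Pearson, on fragments), and the response difference an exact conditional odds ratio interval. Both reflect counting error alone, because each group is 1 library. As far as the labels say, no molecular identifiers were used in counting. Copies of the same fragment may therefore have been counted, and the intervals may be too narrow. Calls, steps and the ratio interval were tested on simulated counts. All simulated counts were whole, so the steps were not tested with values from shared reads. The odds ratio interval was not tested on simulated counts. The ratio interval was not tested at counts as low as those of SPC24 with nutlin-3a. Genes were named by role group, and from the other lists as the 3 lowest and 3 highest by mean nutlin-3a difference. LIN52, LIN9, ZWILCH, KNTC1 and SPDL1 were named outside this rule, as were the genes set beside KNTC1. The genes, lists and motifs were chosen with earlier results of these data known. RefSeq promoters and GENCODE 29 lengths were matched by symbol (KNL1, SGO1 and SGO2 for CASC5, SGOL1 and SGOL2), with no coordinates taken from the files. Python 3.11.15, numpy 2.4.6, pandas 2.3.3, scipy 1.17.1 and matplotlib 3.10.9 were used.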

Additional observations from a re-analysis of the deposited data

Results flagged for a closer look

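At 2 genes the LIMA1 shRNA minus control shRNA difference had opposite signs without and with nutlin-3a and the responses differed by at least 1. For AURKB these differences were 0.06 untreated and -1.22 with nutlin-3a, a response difference of -1.28; with a pseudocount of 10 in place of 1 the last 2 were -0.83 and -0.89, short of a size of 1. For CENPH they were -0.09 and 1.17, a response difference of 1.26. Each value compares single libraries, and neither difference was tested.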

How the results depend on the processing

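The alternatives were pseudocounts of 0.5 and 10, upper-quartile and median-of-ratios scaling, no filter, means of at least 150, a size of 2 for a call and, chosen after seeing the data, only the 36 members without shared reads. The nutlin-3a counts stayed within 1.5 times of 35 under all of them (29 to 35, the 29 being of the 36 members without shared reads), and no call reversed. With a pseudocount of 10, 0 members were lower in LIMA1 than in control shRNA cells with nutlin-3a, and 0 had a response difference of -1 or lower; AURKB then stood at -0.83 and -0.89, CENPM at -0.73 and SPC24 at -0.54. With a size of 2, 0 members were lower and 0 higher in LIMA1 shRNA cells with nutlin-3a, and 0 passed either limit of the response difference. The members' median ran from -3.74 to -3.44 in control and from -3.79 to -3.17 in LIMA1 shRNA cells; that of the response difference, 0.05, stood at -0.03 with a pseudocount of 10. With 1 library per group none could be left out. Depth limits the LIMA1 comparison with nutlin-3a, where SPC24 has 6 to 14 fragments and SKA1 9 to 13.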

Other observations

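Within the list of DREAM and MuvB genes, some members differed between the cell lines. LIN52, a MuvB subunit, stood at 184 normalized counts in untreated control cells, 56.4 in untreated LIMA1 shRNA cells, 89.3 in nutlin-3a control cells and 33.2 in nutlin-3a LIMA1 shRNA cells, differences of -1.69 and -1.40 between the lines. LIN9, another MuvB subunit, was at 365 and 454 untreated and at 59.6 and 131 with nutlin-3a, a difference of 1.12 with nutlin-3a. No other gene of the 13 differed by 1 between the lines in either treatment. Of all genes, 2.05% were lower and 1.04% higher by 1 in LIMA1 shRNA cells without nutlin-3a. With nutlin-3a the shares were 1.94% and 1.26%. Each value is from 1 library, and these differences were not tested.

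Of the 25 other centromere and kinetochore genes, 19 lay above 0 in the LIMA1 minus control difference with nutlin-3a, with a median of 0.29, beside 54.6% of all genes above 0 and a median of 0.03. Without nutlin-3a 16 of the 25 were above 0, with a median of 0.05. With nutlin-3a, the RZZ subunit ZWILCH stood at 261 normalized counts in control and 511 in LIMA1 shRNA cells, the RZZ subunit KNTC1 at 129 and 173, and the dynein adaptor gene SPDL1 at 322 and 550. ZW10, the RZZ subunit among the 43 genes, was at 299 and 319. The genes named are examples. Among others, CENPU (0.85), KNSTRN (0.69) and KIF18A (0.57) had larger differences with nutlin-3a than KNTC1 (0.42). The lowest differences in the list were those of SPAG5 (-0.64), PLK1 (-0.38) and KIF2C (-0.32).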
